A study of Mus musculus with 6 samples.

Results

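The amino acid transporter genes of inguinal white adipose tissue (iWAT) were examined as a group of 43 genes. They were all gene symbols of the solute carrier families *Slc1*, *Slc3*, *Slc6*, *Slc7*, *Slc36*, *Slc38* and *Slc43* with a mean level of at least 0.1 TPM over the 6 libraries. TPM is a level corrected for transcript length, as a share with the same sum in every library. Of the 36144 gene symbols measured, 61 matched these family names. *Slc7a10*, which lies at chr7:35186385-35201114 (GRCm38), 64457 bases past the end of *Cebpa*, was left out, and 17 of the remaining 60 were below the cut. Just inside the cut lay *Slc6a17* at 0.157 and *Slc6a19* at 0.105 TPM, and just outside it lay *Slc6a18* at 0.0813, *Slc7a14* at 0.0700 and *Slc1a2* at 0.0627 TPM.

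Whole iWAT from 3 Cebpa_fl/fl and 3 Cebpa_ASKO mice was profiled by bulk poly-A RNA-seq, which asks what loss of the transcription factor C/EBPα in adipocytes does to gene expression in a depot that still forms. All 6 animals were 10-week-old females of the C57BL6/J background, fed at random, in 1 batch, and each library came from both inguinal pads of 1 mouse with the lymph nodes removed. Both genotypes carried floxed *Cebpa* alleles, and only Cebpa_ASKO mice carried the AdipoQ-Cre transgene. Cre was driven by the *Adipoq* promoter, which becomes active late in adipocyte differentiation, so cells other than adipocytes kept the gene. *Cebpa* itself was at 448, 465 and 498 CPM (counts scaled for library size) in Cebpa_fl/fl and at 37.7, 45.8 and 37.2 CPM in Cebpa_ASKO, or 8.55% of the control mean.

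Amino acids are charged or polar and cross membranes through carrier proteins. *Slc1* and *Slc38* carriers use the sodium gradient or exchange one amino acid for another. *Slc36* carriers move small amino acids together with protons, and *Slc43* carriers let large neutral amino acids pass down their gradient. The exchangers of *Slc7* work as light chains bound to a heavy chain, *Slc3a2* (4F2hc, CD98) or *Slc3a1* (rBAT), while the cationic transporters of *Slc7* work alone. *Slc6* carriers use sodium and chloride and take up amino acids, but also neurotransmitters, taurine and creatine. In fat, such carriers supply glutamine, glutamate, serine and branched-chain amino acids for protein synthesis, lipogenesis and signalling through mTORC1.

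The Cebpa_fl/fl libraries held 46237121, 46601320 and 49477671 estimated counts and the Cebpa_ASKO libraries 33141769, 37957065 and 42243013, so each knockout library was shallower than each control. The adipocyte markers summed to 24147 to 26939 CPM in Cebpa_fl/fl and 10041 to 13093 CPM in Cebpa_ASKO. Of these 12 genes 6 passed the test as lower, beside 3.84% of all genes tested, and none was at or under 3 counts. All 10 skeletal muscle markers were higher, beside 1.39% of all genes tested, with sums of 583 to 786 against 1984 to 5584 CPM. Of the other marker lists, 2 of 8 endothelial genes were lower (377 to 454 against 281 to 375 CPM) and 1 of 6 Schwann cell genes was higher (128 to 190 against 240 to 343 CPM). No gene passed in the lists for brown and beige adipocytes (144 to 1280 against 712 to 1358), macrophages (1026 to 2750 against 1676 to 2291), fibroblasts and progenitors (2620 to 5288 against 3569 to 4413), smooth muscle and pericytes (689 to 844 against 900 to 1066), mammary epithelium (565 to 1181 against 1523 to 1696), keratinocytes (26.6 to 41.8 against 46.6 to 73.2) or lymphocytes. The lymphocyte sum was 280 CPM in control 1, and 14.5 and 6.80 CPM in the other controls, and control 1 also held the most *Ucp1*, at 733 against 19.4 and 112 CPM. *Wap* of the mammary list and *Flg* of the keratinocyte list were at or under 3 counts. In whole tissue, fewer cells of a type and less RNA per cell cannot be told apart, and the part of cell makeup in the differences below was not tested.

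By gene level, which sums all annotated transcripts of a gene, *Slc1a5* dominated the transporters of this depot. This sodium-dependent exchanger (ASCT2) carries glutamine, serine and alanine. Its level was 438, 628 and 681 TPM in Cebpa_fl/fl, which was 50.4% ± 3.30 (SD, n = 3) of the TPM of all 43 genes. The next highest in controls was the proton-coupled carrier *Slc36a2*, with a mean of 126 ± 28.2 TPM. *Slc3a2* at 68.1 ± 3.28, the *Slc38* family member *Slc38a10* at 66.9 ± 9.31 and the glutamate carrier *Slc1a3* at 64.1 ± 24.5 TPM followed, and the ranges of these 3 genes overlapped. Over the 6 libraries, 4 genes had a mean of at least 50 TPM, 12 had at least 10 TPM, 19 lay between 1 and 10 TPM and 12 lay under 1 TPM. The median of the 43 genes was 4.11 TPM.

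**Figure D1:**
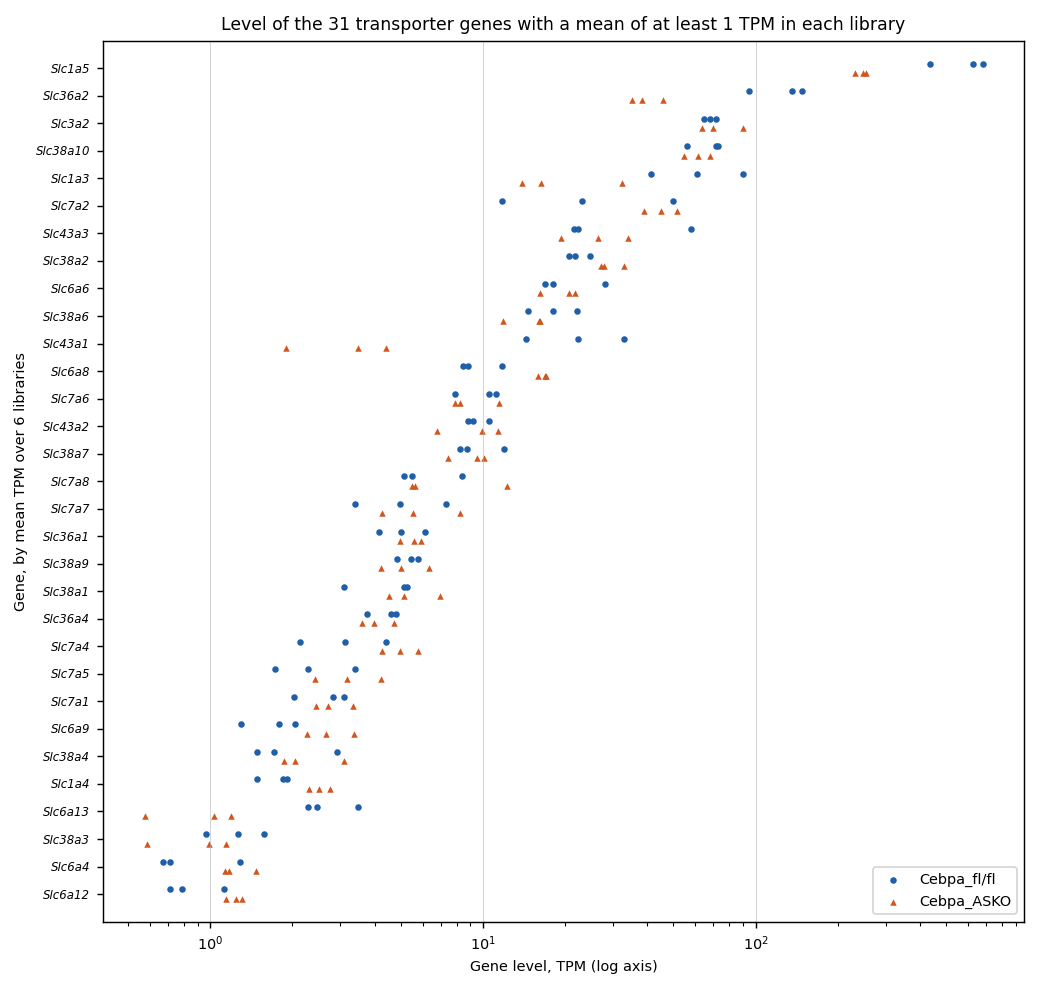
Level of the 31 amino acid transporter genes with a mean of at least 1 TPM in each library, in TPM on a log axis, ordered by the mean over 6 libraries, with 1 point per mouse. *Slc1a5* is at the top in both genotypes, and the triangles of the Cebpa_ASKO libraries lie to the left of the control circles for *Slc1a5*, *Slc36a2*, *Slc1a3*, *Slc43a1* and *Slc6a13*.

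In Cebpa_ASKO iWAT the summed level of the transporters was 608, 683 and 765 TPM, against 939, 1223 and 1283 TPM in controls, and the genotypes did not overlap. *Slc1a5* fell to 35.9% ± 2.35 of that sum. Without *Slc1a5*, the sums were 501, 595 and 602 TPM in controls and 377, 435 and 510 TPM in Cebpa_ASKO, and the genotypes overlapped. *Slc1a5*, *Slc36a2*, *Slc1a3* and *Slc43a1* were then set aside because they passed the test below as lower in these same libraries. The remaining 39 genes summed to 352 ± 37.4 TPM in Cebpa_fl/fl and 377 ± 51.8 TPM in Cebpa_ASKO (SD, n = 3 each). These ranges overlapped, which follows in part from that choice of genes. By gene level, the order below *Slc1a5* in Cebpa_ASKO began with *Slc3a2* at 74.6 ± 13.6 and *Slc38a10* at 61.3 ± 6.75 TPM. The cationic amino acid transporter *Slc7a2* at 45.2 ± 6.31 and *Slc36a2* at 39.8 ± 5.33 TPM followed.

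**Figure D2:**
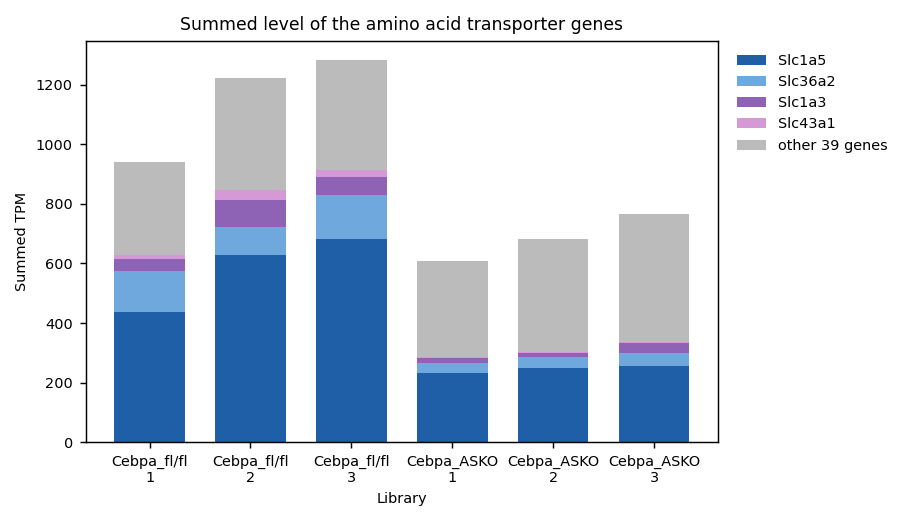
Summed level of the 43 amino acid transporter genes in each library, in TPM, with 1 stacked bar per mouse. The blue, purple and pink segments are the 4 genes that passed the test as lower in these libraries, and they are shorter in every Cebpa_ASKO bar. The grey segment of the other 39 genes is 309 to 377 TPM in controls and 324 to 427 TPM in Cebpa_ASKO.

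All 43 genes could be tested by edgeR's quasi-likelihood test, and 5 passed at an adjusted p under 0.05 (11.6%). Across the 16069 genes tested, 5.23% passed. Among the transporters 4 were lower in Cebpa_ASKO, beside 3.84% of all genes, and 1 was higher, beside 1.39%. The median log2 fold change was -0.02 for the transporters and 0.02 for all genes, and 30 of the 43 lay within 0.5 of 0. The 3 knockout libraries lay wholly apart from the 3 controls for 10 transporters (23.3%), which is below the 26.1% over all genes. Of these 6 were lower (14.0%, beside 13.2%) and 4 higher (9.30%, beside 12.9%). An unadjusted p under 0.05 was reached by 10 transporters (23.3%), beside 19.8% of all genes. With a log2 change of 1 or more in either direction also required, 4 transporters passed, beside 3.08% of all genes. DESeq2 passed 8 transporters, beside 10.2% of all genes, of which 3 were higher and 5 lower, beside 3.79% and 6.45%. The 38 genes that did not pass in edgeR had log2 fold changes between -1.70 and 0.78.

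**Figure D3:**
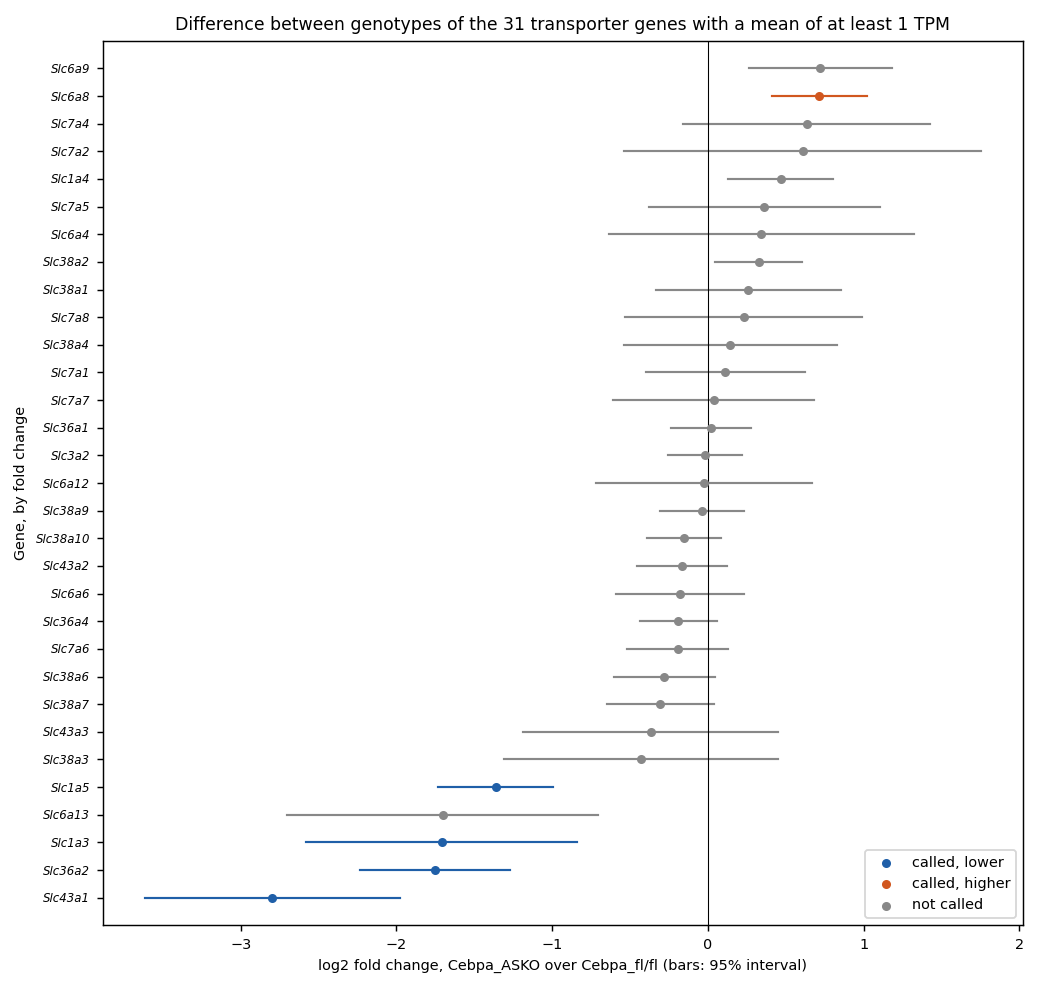
Log2 fold change of the 31 amino acid transporter genes with a mean of at least 1 TPM, Cebpa_ASKO over Cebpa_fl/fl, with 95% intervals from edgeR's quasi-likelihood fit (3 libraries per genotype). The 4 genes called lower lie between -2.80 and -1.36 and the only gene called higher, *Slc6a8*, lies at 0.71, while the genes in grey did not pass.

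Of the *Slc1* carriers, 2 of 4 were lower. *Slc1a5* (chr7:16781340-16798274, plus strand) was at 836, 1082 and 1149 CPM in Cebpa_fl/fl and at 413, 386 and 392 CPM in Cebpa_ASKO. Every knockout value was below the lowest control. The log2 fold change was -1.36 (SE 0.155, 95% interval -1.73 to -0.99, adjusted p = 0.00496 by edgeR's quasi-likelihood test), a fall to 38.9% of the control level. The gene shares its chromosome with *Cebpa*, which lies at chr7:35119293-35121928.

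*Slc1a3* (chr15:8634124-8710764, minus strand) encodes GLAST, a glutamate and aspartate carrier best known from astrocytes. It was at 141, 274 and 192 CPM in Cebpa_fl/fl and at 52.6, 40.7 and 92.2 CPM in Cebpa_ASKO. The genotypes did not overlap, although both were spread widely. The log2 fold change was -1.71 (SE 0.364, 95% interval -2.58 to -0.84, adjusted p = 0.0478 by edgeR's quasi-likelihood test). This call was just inside the threshold: the adjusted p was 0.0602, 0.0757 and 0.102 without control 1, 2 and 3, and 0.195 and 0.154 without Cebpa_ASKO 1 and 2. The direction stayed the same each time.

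The remaining *Slc1* carriers did not pass. *Slc1a4* (ASCT1), a neutral amino acid exchanger related to *Slc1a5*, was at 4.94, 5.51 and 5.98 CPM in Cebpa_fl/fl and at 7.61, 7.33 and 7.81 CPM in Cebpa_ASKO. These values did not overlap and pointed the opposite way from *Slc1a5* (log2 fold change 0.47, SE 0.141), with an adjusted p = 0.129 by edgeR's quasi-likelihood test. DESeq2 gave 0.0445 for the same gene. At these levels *Slc1a4* was a minor component, with a mean of 2.13 TPM over the 6 libraries.

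The *Slc36* and *Slc43* carriers held the other 2 genes that were lower, among 6 members. *Slc36a2* (chr11:55158470-55185077, minus strand) encodes PAT2, a proton-coupled carrier of glycine, alanine and proline that has been used as a surface marker of brown and beige adipocytes. It was at 270, 168 and 274 CPM in Cebpa_fl/fl and at 69.5, 65.6 and 76.0 CPM in Cebpa_ASKO. The lowest control, at 168 CPM, was thus well above the highest knockout, at 76.0 CPM. Its log2 fold change was -1.75 (SE 0.202, 95% interval -2.23 to -1.27, adjusted p = 0.0051 by edgeR's quasi-likelihood test). It was the only transporter that passed under every alternative setting tried. No gene of the brown and beige list passed, and *Ucp1* was at 248, 224 and 181 CPM in Cebpa_ASKO, between its highest and its other control values.

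*Slc43a1* (chr2:84838850-84863594, plus strand) encodes LAT3, a facilitative carrier of leucine and other large neutral amino acids. It showed the largest fold change of the 43 genes, from 29.6, 60.6 and 42.7 CPM in Cebpa_fl/fl to 4.25, 6.25 and 8.51 CPM in Cebpa_ASKO, or 14.3% of control. The groups were far apart. The log2 fold change was -2.80 (SE 0.344, 95% interval -3.62 to -1.98, adjusted p = 0.00659 by edgeR's quasi-likelihood test). The related carriers *Slc43a2* and *Slc43a3* and the lysosomal *Slc36a1* did not pass. *Slc43a3*, a nucleobase carrier despite its family name, was at 95.9 CPM in control 2 and at 40.6 and 40.7 CPM in the other controls.

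Pairs of related transporters that lie near each other in the genome were compared within each library. Whether other genes lie between them was not examined. Among the 43 genes, 4 pairs of one family lay within 100 kb. *Slc36a2* and *Slc36a1* are 19273 bases apart on chromosome 11, and their log2 ratio was 3.84, 2.82 and 3.68 in Cebpa_fl/fl and 1.76, 1.55 and 1.78 in Cebpa_ASKO. *Slc43a1* and *Slc43a3* are 72985 bases apart on chromosome 2, with log2 ratios of -0.46, -0.66 and 0.07 in Cebpa_fl/fl and -3.29, -2.84 and -2.58 in Cebpa_ASKO. In both pairs the ratio was lower in every knockout library, which restates that the called gene of each pair was lower and its neighbour did not pass. The GABA carriers *Slc6a13* and *Slc6a12*, 5343 bases apart on chromosome 6, went from 1.54, 1.81 and 0.82 to -0.33, -1.10 and 0.28. Exact two-sided permutation tests gave p = 0.1 for each of these 3 pairs, which is the smallest that 3 against 3 libraries allow (0.133 after Benjamini-Hochberg adjustment over 4 pairs). For *Slc38a1* and *Slc38a2*, 44479 bases apart on chromosome 15, the mean log2 ratio was -1.95 ± 0.429 in Cebpa_fl/fl and -1.98 ± 0.164 in Cebpa_ASKO (SD, n = 3 each, p = 0.9, exact permutation test).

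**Figure D4:**
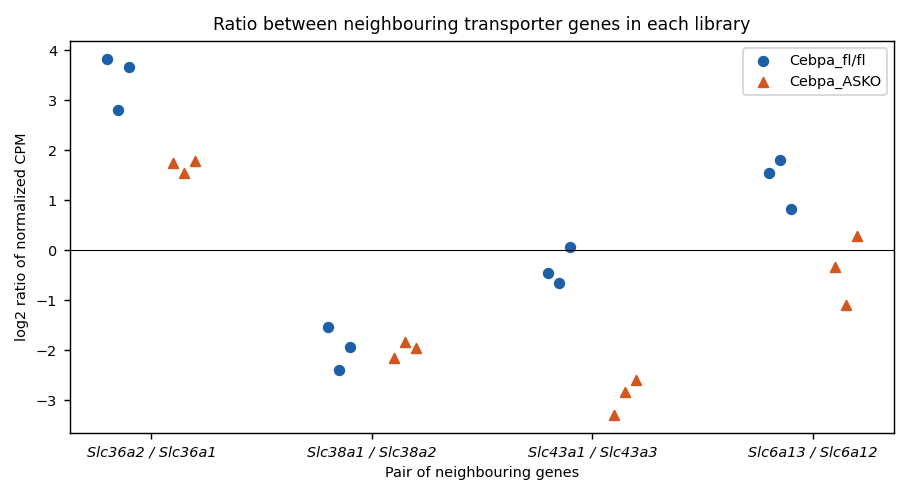
Log2 ratio of the normalized CPM of neighbouring transporter genes of one family, for 4 pairs, with 1 point per library. The Cebpa_ASKO triangles lie wholly below the control circles for *Slc36a2* over *Slc36a1*, *Slc43a1* over *Slc43a3* and *Slc6a13* over *Slc6a12*, and overlap them for *Slc38a1* over *Slc38a2*.

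Among the 12 *Slc6* carriers, *Slc6a8* was higher and no gene was lower. *Slc6a8* (chrX:73673150-73682502, plus strand) is the creatine transporter, whose substrate feeds the phosphocreatine system in muscle, brain and thermogenic fat. It was at 21.2, 27.6 and 21.8 CPM in Cebpa_fl/fl and at 41.8, 38.8 and 35.2 CPM in Cebpa_ASKO, with no overlap. The log2 fold change was 0.71 (SE 0.128, 95% interval 0.41 to 1.02, adjusted p = 0.0288 by edgeR's quasi-likelihood test). The skeletal muscle markers were raised in the same libraries, with sums of 3049, 5584 and 1984 CPM in Cebpa_ASKO 1, 2 and 3, and the part of muscle in the *Slc6a8* difference was not tested. The adjusted p was 0.0912 and 0.0879 without control 1 and 3, and 0.123 and 0.114 without Cebpa_ASKO 1 and 2, and the direction stayed the same.

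A further 3 *Slc6* genes did not overlap between genotypes and had an unadjusted p under 0.05, without passing the adjusted threshold. *Slc6a13* (GAT2), which takes up GABA and taurine, was at 4.21, 4.77 and 3.07 CPM in Cebpa_fl/fl and at 1.62, 0.562 and 1.53 CPM in Cebpa_ASKO, with a log2 fold change of -1.70 (SE 0.419) and an adjusted p = 0.0744 by edgeR's quasi-likelihood test. *Slc6a9* (GlyT1), a glycine carrier, was at 3.39, 4.20 and 4.58 CPM against 6.05, 6.18 and 7.83 CPM, with a log2 fold change of 0.72 and an adjusted p = 0.0944. DESeq2 passed *Slc6a13* and *Slc6a9*, with adjusted p = 0.00119 and 0.0154, and limma passed *Slc6a13* on log2(TPM + 1) and log2(TPM + 0.1), with adjusted p = 0.0350 and 0.0456. *Slc6a9* overlaps the opposite-strand gene *B4galt2*, which averaged 470 counts in controls and 467 in Cebpa_ASKO, and since the strand setting of the counting is not given, its reads may be shared. *Slc6a15*, a neutral amino acid carrier best known from neurons, was at 0.869, 0.657 and 1.02 CPM against 1.46, 1.81 and 1.10 CPM, with a log2 fold change of 0.78 and an adjusted p = 0.224.

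The most abundant *Slc6* gene, the taurine transporter *Slc6a6*, was at 79.4, 116 and 79.6 CPM in Cebpa_fl/fl and at 71.7, 86.4 and 85.2 CPM in Cebpa_ASKO. The ranges overlapped (log2 fold change -0.18, 95% interval -0.59 to 0.23). *Slc6a19*, a neutral amino acid carrier of gut and kidney, averaged only 0.105 TPM and owed that to control 1, at 1.02 CPM against 0.106 and 0.127 CPM in the other controls. Control 1 was also the library with the highest lymphocyte sum, and whether these are related was not tested. The coding transcript of *Slc6a19* was at 0 TPM in every library, so its level came only from transcripts without coding annotation.

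The heterodimeric exchangers did not pass in any of their 8 genes. *Slc3a2*, the heavy chain that brings most light chains to the cell surface, was at 88.8, 79.1 and 85.9 CPM in Cebpa_fl/fl and at 78.5, 79.0 and 92.9 CPM in Cebpa_ASKO. The values overlapped closely, with a log2 fold change of -0.02 and a 95% interval of -0.26 to 0.22. Its sign depended on the scaling, at 0.03 with total counts and 0.11 with limma on log2(TPM + 1). The ratio of *Slc3a2* TPM to the summed TPM of the 6 light chains among the 43 genes was 2.79 ± 0.310 in Cebpa_fl/fl and 2.86 ± 0.352 in Cebpa_ASKO (SD, n = 3 each). *Slc7a10*, which was left out of the group, is not in that sum, so the ratio does not cover all possible partners.

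Of the light chains, *Slc7a11*, the cystine and glutamate exchanger xCT, had the fold change farthest from 0. It was at 2.25, 0.424 and 0.720 CPM in Cebpa_fl/fl and at 0.444, 0.638 and 0.516 CPM in Cebpa_ASKO. A single control was therefore high, and the other values overlapped (log2 fold change -1.08, 95% interval -2.59 to 0.43, adjusted p = 0.419 by edgeR's quasi-likelihood test). *Slc3a1*, the other heavy chain, was at 0.200 to 0.551 CPM over the 6 libraries and overlaps *Prepl*, which averaged 1499 counts in controls and 1198 in Cebpa_ASKO, so its low values are uncertain.

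None of the 9 *Slc38* carriers passed, and their log2 fold changes lay between -0.43 and 0.33. *Slc38a10*, the most abundant of them, was at 152, 171 and 183 CPM in Cebpa_fl/fl and at 156, 148 and 152 CPM in Cebpa_ASKO. The ranges overlapped, and the 95% interval of the log2 fold change was -0.39 to 0.08. *Slc38a2* (SNAT2), a glutamine and alanine carrier induced by amino acid shortage, was at 85.1, 79.5 and 94.8 CPM in Cebpa_fl/fl and at 113, 118 and 94.5 CPM in Cebpa_ASKO. Only Cebpa_ASKO 3 fell within the control range, and the adjusted p was 0.186 (log2 fold change 0.33, edgeR's quasi-likelihood test). *Slc38a9*, the lysosomal arginine sensor, had a log2 fold change of -0.04.

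All 4 members of the cationic amino acid transporter (CAT) subfamily had log2 fold changes above 0, between 0.04 and 0.63, and none passed. *Slc7a2* (CAT2), which carries arginine, lysine and ornithine, was at 153, 69.3 and 313 CPM in Cebpa_fl/fl and at 261, 263 and 292 CPM in Cebpa_ASKO. The controls spanned more than the whole knockout range, so the difference of 0.61 on the log2 scale (95% interval -0.54 to 1.76, adjusted p = 0.564 by edgeR's quasi-likelihood test) was smaller than the spread between controls. It was 0.22 without control 2 and 1.29 without control 3.

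The transcripts of *Slc1a5* did not fall equally. The annotation gives 8 transcripts for this gene, of which 1 codes for protein and 5 retain an intron. The coding transcript was at 205, 278 and 276 TPM in Cebpa_fl/fl and at 66.4, 63.5 and 89.7 TPM in Cebpa_ASKO, or 28.9% of control. The other 7 transcripts together were at 234, 351 and 404 TPM against 164, 185 and 165 TPM, or 52.0% of control. The coding share of *Slc1a5* TPM was thus 46.7%, 44.2% and 40.6% in Cebpa_fl/fl and 28.8%, 25.6% and 35.2% in Cebpa_ASKO, without overlap. The retained-intron transcript Slc1a5-202, with 8 exons, rose in share from 32.3% ± 1.98 to 41.7% ± 4.32 while its gene fell. A gene total therefore gives a smaller fall than the coding transcript alone. By coding transcripts, *Slc1a5* was at 253 ± 41.9 TPM in Cebpa_fl/fl, against 118 ± 25.1 for *Slc36a2*. In Cebpa_ASKO it was at 73.2 ± 14.3 TPM, beside 73.6 ± 13.5 for *Slc3a2*, so its top rank there rested on the gene total. These shares were not tested, and kallisto divides reads between overlapping transcripts by an estimate.

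**Figure D5:**
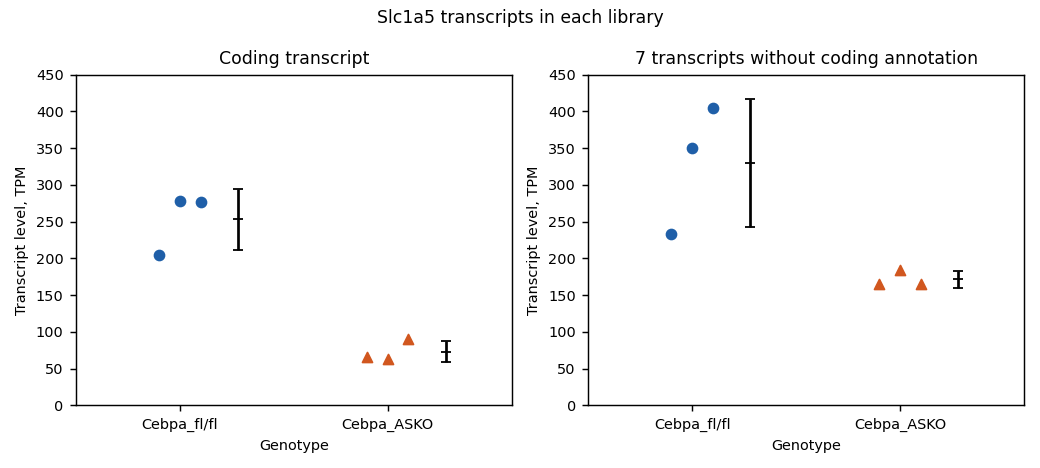
Level of the coding transcript of *Slc1a5* and the summed level of its 7 other annotated transcripts, in TPM, with 1 point per library and the mean ± SD beside each genotype (n = 3). The coding transcript lies at 205 to 278 TPM in controls and 63.5 to 89.7 TPM in Cebpa_ASKO, and the others at 234 to 404 and 164 to 185 TPM.

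Over the 31 transporters with a mean of at least 1 TPM, the median coding share of TPM was 89.9% in Cebpa_fl/fl and 87.3% in Cebpa_ASKO. Only *Slc1a5* and *Slc38a9* had a coding share of TPM under 50% in controls. By estimated counts, which are not corrected for transcript length, their mean control shares were 54.1% and 87.5%. In 5 genes, *Slc1a5*, *Slc1a3*, *Slc43a1*, *Slc7a7* and *Slc6a12*, the coding share was lower in every knockout library, and in 3 genes, *Slc38a6*, *Slc38a1* and *Slc7a1*, it was higher. A coding share can differ only in genes with both kinds of transcript, which held for 28 of the 31, so 28.6% of these lay apart. Over all 10317 such genes 12.3% lay apart, 8.57% lower and 3.68% higher. The median change in share was -0.519 points for the transporters and -0.312 points for all such genes. *Slc6a12*, the betaine and GABA carrier, moved most in TPM share, from 88.7% ± 9.81 to 43.4% ± 13.7, in a gene whose own log2 fold change was -0.02. It held only 378 counts over the 6 libraries. By estimated counts its coding share went from 96.4% ± 3.12 to 71.9% ± 11.1.

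Promoter sequence was available for 27 of the 43 genes in the RefSeq table (GRCm38.p6), as 45 windows of 300 bases running from 250 before to 50 after a transcription start. *Slc1a5*, *Slc36a2* and *Slc6a8* were not among them. Each window was searched on both strands for TTGCNNAA, a pattern typical of C/EBP binding, and for TGATGNAA, the core of the C/EBP-ATF response element through which amino acid shortage acts. The 2 patterns cannot match the same 8 bases but may overlap in part. TTGCNNAA was found in 6 of the 45 windows (13.3%) and in 10.8% of all 32851 windows. TGATGNAA was found in 4 of the 45 windows (8.89%) and in 3.97% of all windows, and the 4 belonged to *Slc1a4*, *Slc7a11* and *Slc7a7*. Overlapping *Slc7a7* windows hold the same match, so that site was counted again. By gene, 3 of the 27 held this pattern. The *Slc43a1* window begins at 84840073, downstream of the annotated gene start at 84838850, and does not cover that start. The windows of the called genes *Slc43a1* and *Slc1a3* held neither, which says only that these letters are not in the windows. They are shown with those of *Slc1a4* and *Slc7a11* for comparison, 5′ to 3′ on the strand of the gene, with matches to either pattern, or to its reverse complement, in capitals.
Slc43a1, chr2:84840073-84840372, plus strand: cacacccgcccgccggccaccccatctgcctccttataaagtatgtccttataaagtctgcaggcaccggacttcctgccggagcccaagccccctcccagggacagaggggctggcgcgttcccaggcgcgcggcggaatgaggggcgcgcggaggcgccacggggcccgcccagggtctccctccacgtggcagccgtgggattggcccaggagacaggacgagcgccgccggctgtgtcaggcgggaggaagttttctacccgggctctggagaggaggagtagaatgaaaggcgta
Slc1a3, chr15:8710758-8711057, minus strand: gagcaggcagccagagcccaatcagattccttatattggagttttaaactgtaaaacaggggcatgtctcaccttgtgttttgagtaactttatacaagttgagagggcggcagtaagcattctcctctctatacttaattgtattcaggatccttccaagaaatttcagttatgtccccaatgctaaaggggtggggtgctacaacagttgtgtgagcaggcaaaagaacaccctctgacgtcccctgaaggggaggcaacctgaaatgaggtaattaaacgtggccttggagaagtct
Slc1a4, chr11:20332664-20332963, minus strand: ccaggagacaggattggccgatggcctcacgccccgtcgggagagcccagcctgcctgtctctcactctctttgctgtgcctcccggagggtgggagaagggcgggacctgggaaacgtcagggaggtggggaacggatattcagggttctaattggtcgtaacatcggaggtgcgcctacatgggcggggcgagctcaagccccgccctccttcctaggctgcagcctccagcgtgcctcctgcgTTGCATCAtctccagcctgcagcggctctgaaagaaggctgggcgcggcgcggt
Slc7a11, chr3:50443564-50443863, minus strand: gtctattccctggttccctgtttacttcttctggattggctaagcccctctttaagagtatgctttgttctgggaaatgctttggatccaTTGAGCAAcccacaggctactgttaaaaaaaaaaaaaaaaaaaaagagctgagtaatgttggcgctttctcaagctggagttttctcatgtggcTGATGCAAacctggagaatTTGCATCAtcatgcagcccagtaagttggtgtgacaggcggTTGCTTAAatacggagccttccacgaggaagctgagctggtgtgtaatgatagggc

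The capitals in the *Slc1a4* window mark 1 match to TGATGNAA on the opposite strand. In the *Slc7a11* window they mark 2 matches to each pattern. Neither gene passed the test, at adjusted p = 0.129 and 0.419 by edgeR's quasi-likelihood test.

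Other genes of amino acid handling were read from the same fit, in which 1.39% of all genes tested were higher and 3.84% lower. Of 12 mitochondrial amino acid carriers 10 could be tested, and 1 was higher and 1 lower, with a median log2 fold change of -0.09. *Slc25a12*, an aspartate and glutamate carrier, went from 24.5 ± 0.855 to 35.3 ± 2.40 CPM (log2 fold change 0.53, adjusted p = 0.0180 by edgeR's quasi-likelihood test). *Sfxn1*, the mitochondrial serine carrier, went from 203 ± 27.2 to 132 ± 6.08 CPM (-0.63, adjusted p = 0.0335). Of 12 further plasma membrane and lysosomal transporters of amino acids and peptides, 8 could be tested, with a median of -0.23. Only *Slc16a10* passed, a facilitative carrier of aromatic amino acids, which went from 29.4 ± 4.49 to 11.6 ± 1.26 CPM (-1.33, adjusted p = 0.00399).

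Of 39 genes of amino acid sensing upstream of mTORC1, 1 was higher and 1 lower, beside 1.39% and 3.84% of all genes tested. Their median log2 fold change was -0.01. The leucine sensor *Sesn2* went from 18.8 ± 3.10 to 10.4 ± 1.24 CPM (log2 fold change -0.86, adjusted p = 0.0295 by edgeR's quasi-likelihood test). *Rnf152*, a ubiquitin ligase acting on the lysosomal GTPase RagA, went from 7.43 ± 2.83 to 30.3 ± 2.96 CPM (2.03, adjusted p = 0.00831). The 18 genes of the amino acid scarcity response had a median of 0.29, with 1 higher and 4 lower, beside the same 1.39% and 3.84%. The genes that fell were the serine synthesis enzymes *Phgdh* (-2.50) and *Psat1* (-1.40), asparagine synthetase *Asns* (-1.03) and again *Sesn2*, with adjusted p of 0.00237 to 0.0295 by edgeR's quasi-likelihood test, and the gene that rose was *Cebpg* (1.36), which lies beside *Cebpa* on chromosome 7. *Atf4*, the central activator of the response, was at 134, 112 and 108 CPM in Cebpa_fl/fl and at 156, 137 and 129 CPM in Cebpa_ASKO, with overlapping ranges and an adjusted p = 0.32.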

How the data were processed

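Bulk RNA-seq of whole iWAT from 3 Cebpa_fl/fl and 3 Cebpa_ASKO mice was analysed, grouped by the sample labels. The authors deposited estimated counts, effective lengths and TPM per transcript, and TPM per gene symbol, made with kallisto 0.44.0. Per the labels, GRCm38.p6 and GRCh38.p12 were named without a role, and neither the annotation nor the strand setting is given in the sources used here. By their identifiers, 98.6% of the transcripts were found in GENCODE M21, an annotation of GRCm38, and their estimated counts were summed per symbol and rounded. For all 43 transporters the sums covered the whole of the deposited TPM.

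Cebpa_ASKO was compared with Cebpa_fl/fl by edgeR 4.0.16 (quasi-likelihood test, TMM factors of 0.956 to 1.06, default filter on low counts, Benjamini-Hochberg adjustment over 16069 genes, called at an adjusted p under 0.05) in R 4.3.3. CPM are scaled by TMM. Standard errors were taken from the fold change and its F value, and 95% intervals from the t distribution. Each library came from a separate mouse. Libraries of the same genotype were more different than counting noise allows (chi-square per degree of freedom of 27.6 to 239). Alternatives were DESeq2 1.42.0, limma 3.58.1 on log2(TPM + 1) and log2(TPM + 0.1), other scalings and filters, a length offset, the replicate number as a block, and each library left out. The fit was tested on simulated counts. Pair ratios used exact permutation tests in scipy 1.17.1. Members, gene lists and marker lists were chosen with earlier results of these data known. Genes were named if called, if apart with an unadjusted p under 0.05, if among the 5 most abundant or the most abundant of their class, or as heavy chains or *Cebpa*; in the pathway lists, called genes were named. *Atf4*, *Slc7a11*, *Slc38a2*, *Slc38a9*, *Slc43a3*, *Slc6a12*, *Slc6a19* and the genes of changed coding share were chosen after their values were seen. The liver libraries of the study were not analysed here.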

Additional observations from a re-analysis of the deposited data

How the results depend on the processing

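*Slc36a2* passed under all 16 alternatives, and *Slc1a5* and *Slc43a1* under 15, missing only with limma on log2(TPM + 1) without a filter. *Slc1a3* passed under 6 and *Slc6a8* under 9 of the 16, with the direction kept. The number of transporters passing was 8 with DESeq2, which added *Slc1a4*, *Slc6a9* and *Slc6a13*. With limma and the filter *Slc6a13* passed and *Slc1a3* did not. The number was 1 with limma on log2(TPM + 1) without a filter, 3 with the replicate block, and 3 to 5 with a library left out. Over all genes it was 1802 with DESeq2, 512 with limma on log2(TPM + 0.1), 349 with limma on log2(TPM + 1) without a filter, 370 with the replicate block, and 311 (without Cebpa_ASKO 1) to 922 (without control 2) with a library left out. Replicate numbers did not pair the libraries: same-numbered libraries had correlations of their deviations of 0.0956, -0.00613 and -0.259, other pairs -0.194 to 0.202. The log2 fold change of *Slc3a2* turned from -0.02 to 0.0343 with total counts, 0.0554 with the length offset, 0.11 with limma on log2(TPM + 1) with or without the filter and 0.12 with log2(TPM + 0.1), and lay between -0.12 and 0.0231 with a library left out. *Slc6a6* reached 0.0179 and *Slc3a1* 0.0898 without control 2, from lowest values of -0.27 and -0.65. The causes were not tested. A mean of at least 1 TPM would keep 31 genes. None of the 12 genes under 1 TPM passed, and the shares of depth and of spread between mice in this were not tested.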
